A study of Mus with 4 samples.

Results

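The genes examined were 10 genes of glucose uptake and glycolysis, *Slc2a1*, *Slc2a4*, *Hk1*, *Hk2*, *Pfkm*, *Aldoa*, *Gapdh*, *Pkm*, *Ldha* and *Ldhb*, of 55487 Ensembl gene IDs measured by RNA-seq in newborn mouse hearts. They were taken by Ensembl ID, with the version suffix dropped, and all 10 IDs were found. The 4 libraries came from heart tissue at postnatal day 0 (P0), 2 from wild-type (WT) mice and 2 from mice overexpressing miR-187, and the study asked how raised miR-187 alters the heart transcriptome. The knock-in line had a C57BL/6J background and carried exogenous mmu-miR-187 at the *Rosa26* locus under the *Tek* (*Tie2*) promoter, which is active in endothelial cells, so that cardiomyocytes were not the cells meant to express it. Homozygous (KI/KI) animals and WT controls are the ones the study's methods give for sequencing, whereas the labels give no zygosity. These methods also name cardiac endothelial cells, and the labels heart tissue. Whether a library came from a single pup or a pool, and which sex the pups of each library had, were not given in the sources used here, although the study used males and females. Because the sources do not say that replicates were separate animals, the p-values speak only for these samples, whose spread may be technical. The p-values and intervals from limma, a linear model fit, also draw on a variance pooled over IDs, and not on the spread of each gene alone.

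Glycolysis splits glucose into pyruvate in the cytosol, and lactate dehydrogenase interconverts pyruvate and lactate. The fetal heart relies on glucose and lactate, and around birth it turns toward fatty acid oxidation. Several steps are served by paired genes. GLUT1 (*Slc2a1*) carries glucose without insulin and is prominent in the fetal heart, while GLUT4 (*Slc2a4*) moves to the cell surface in response to insulin and prevails in adult heart and skeletal muscle. *Hk1* and *Hk2* encode hexokinases that phosphorylate glucose and so keep it in the cell, with *Hk2* the insulin-responsive form of muscle. *Ldha* and *Ldhb* encode the muscle-type and heart-type subunits of lactate dehydrogenase.

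In the RefSeq annotation of GRCm38.p6, the assembly known as mm10, the carriers lie at chr4:119108745-119137330 (*Slc2a1*, ENSMUSG00000028645.11) and chr11:69942286-69948216 (*Slc2a4*, ENSMUSG00000018566.14). The hexokinase genes lie at chr10:62268855-62379920 (*Hk1*, ENSMUSG00000037012.18) and chr6:82725025-82774454 (*Hk2*, ENSMUSG00000000628.10). *Pfkm* (ENSMUSG00000033065.14) lies at chr15:98092589-98132447 and *Aldoa* (ENSMUSG00000030695.16) at chr7:126795234-126800994. *Gapdh* (ENSMUSG00000057666.18) lies at chr6:125161852-125166467 and *Pkm* (ENSMUSG00000032294.17) at chr9:59656576-59679372. *Ldha* (ENSMUSG00000063229.15) lies at chr7:46842274-46855627 and *Ldhb* (ENSMUSG00000030246.12) at chr6:142490249-142507957. Each interval spans a whole protein-coding gene, with its exons, introns and untranslated regions.

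Levels are given as the authors' FPKM (fragments per kilobase of transcript, scaled to the mapped total of the library), so different genes can be set side by side. Sequencing depth is unknown, as the table holds no counts. FPKM sums ran from 750826 to 807359 per library. The single most abundant ID took 18.5% (WT) and 21.0% (miR-187) of this sum in the replicate 1 libraries but 4.45% and 3.03% in the replicate 2 libraries. WT replicate 2 stood apart from the other libraries for most of the genes described here, so each group comparison is also given without it. The marker genes of heart and of other cell types were not analysed here, because the table pairs no symbols with its IDs, and the labelled tissue was therefore not checked against its markers.

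The glucose carriers were among the least abundant of the 10 genes. *Slc2a1* measured 1.90 FPKM in WT replicate 1, 3.76 in WT replicate 2, 2.10 in miR-187 replicate 1 and 1.49 in miR-187 replicate 2. Values below follow this order of replicates. *Slc2a4* measured 6.40 and 9.67 FPKM in the WT hearts, compared with 3.88 and 5.97 in the miR-187 hearts. The insulin-responsive carrier was thus the higher of the pair in each library, and for both genes WT replicate 2 was the highest library. The groups overlapped for *Slc2a1*, in which miR-187 replicate 1 exceeded WT replicate 1, and did not overlap for *Slc2a4*.

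Among the hexokinases, *Hk1* was the most even of all the genes across libraries. It measured 9.21 and 10.3 FPKM in the WT hearts, compared with 7.82 and 7.60 in the miR-187 hearts. *Hk2* measured 3.79 and 6.71 FPKM in the WT hearts, compared with 2.72 and 2.89 in the miR-187 hearts. Both genes were lower in each miR-187 library than in each WT library, and *Hk1* lay above *Hk2* in all 4 libraries.

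*Pfkm*, the muscle phosphofructokinase that catalyses the committed step of glycolysis, and *Aldoa*, the aldolase of muscle that splits the hexose into trioses, came next in the pathway. *Pfkm* measured 22.2 and 50.6 FPKM in the WT hearts, compared with 21.5 and 20.5 in the miR-187 hearts. *Aldoa* measured 367 and 1072 FPKM in the WT hearts, compared with 274 and 427 in the miR-187 hearts. Both were far higher in WT replicate 2 than in any other library. For *Pfkm* the other 3 libraries lay close together, and for *Aldoa* miR-187 replicate 2 was higher than WT replicate 1, so that its groups overlapped.

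*Gapdh* encodes glyceraldehyde-3-phosphate dehydrogenase and *Pkm* the pyruvate kinase of muscle and of many other tissues, which makes pyruvate at the end of the pathway. *Gapdh* measured 15.5 and 162 FPKM in the WT hearts, compared with 9.09 and 12.2 in the miR-187 hearts. *Pkm* measured 106 and 264 FPKM in the WT hearts, compared with 110 and 121 in the miR-187 hearts. *Gapdh* was 10.5-fold higher in WT replicate 2 than in WT replicate 1, by far the widest gap of the 10 genes. *Gapdh* has many processed copies in the mouse genome, 3 of which carry the name of a *Gapdh* pseudogene in the RefSeq table, and how reads shared with them were assigned is not given in the sources used here. Its FPKM is therefore uncertain. The same table names 3 pseudogenes of *Ldha*, 2 of *Aldoa* and 1 of *Ldhb*.

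The lactate dehydrogenase genes were both abundant. *Ldha* measured 199 and 474 FPKM in the WT hearts, compared with 221 and 202 in the miR-187 hearts. *Ldhb* measured 370 and 1031 FPKM in the WT hearts, compared with 253 and 359 in the miR-187 hearts. The heart-type *Ldhb* was the higher of the pair in each library. The groups overlapped for *Ldha*, for which both miR-187 libraries lay above WT replicate 1, and did not overlap for *Ldhb*.

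**Figure D1:**
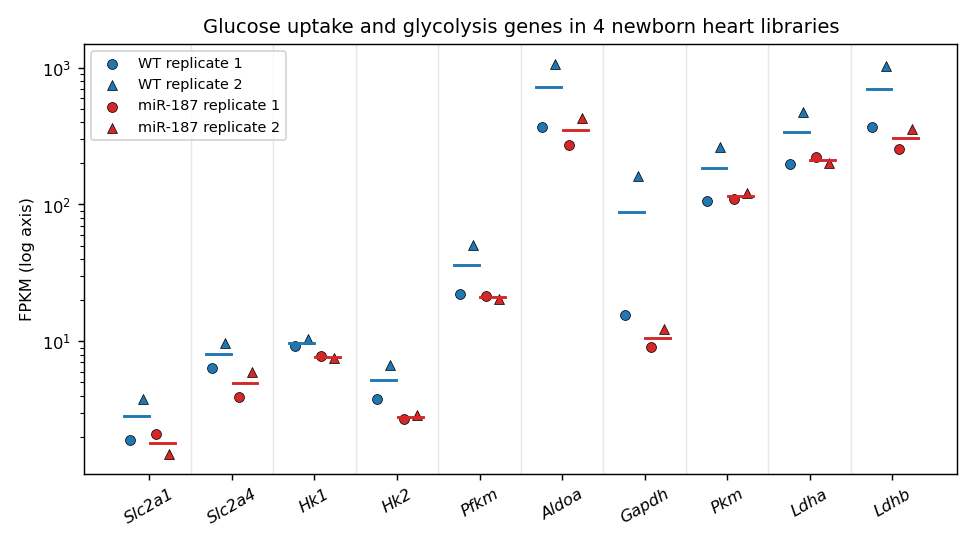
FPKM (log axis) of the 10 genes in each library. Circles are replicate 1, triangles replicate 2, blue WT, red miR-187, and bars the group means; WT replicate 2 is the highest point for every gene, with *Gapdh* at 162 FPKM against 9.09 to 15.5 FPKM in the other 3 libraries.

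Ordered by mean FPKM over the 4 libraries, the genes ran *Aldoa* (535), *Ldhb* (503), *Ldha* (274), *Pkm* (150), *Gapdh* (49.6), *Pfkm* (28.7), *Hk1* (8.74), *Slc2a4* (6.48), *Hk2* (4.03) and *Slc2a1* (2.31). The lower part of the pathway, from aldolase to lactate dehydrogenase, was therefore more abundant than the carriers and hexokinases, with *Gapdh* the least abundant of its genes. *Aldoa* and *Ldhb* could not be separated, since *Aldoa* was above *Ldhb* in 3 of 4 libraries by 1.19-fold at most and their ranges overlapped. *Gapdh* and *Pfkm* also changed places, with *Gapdh* above *Pfkm* in 1 of 4 libraries, WT replicate 2. Every other neighbour kept its order in 4 of 4 libraries, although only *Pfkm* and *Hk1* had ranges that did not overlap. Among the 14325 IDs tested, whose mean was 1 FPKM or more, *Aldoa* lay above 99.2% and *Slc2a1* above 32.0%.

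The spread between the WT libraries was large for these genes. WT replicate 2 was the highest of the 4 libraries for 10 of 10 genes, against 29.1% of all IDs tested and 49.9% of those averaging 50 FPKM or more. This comparison was chosen after the values were seen. On the log2(FPKM + 1) scale, WT replicate 2 lay above the mean of the other 3 libraries by a median of 1.20 over the 10 genes, compared with 0.03 over all tested IDs and 0.28 over IDs of at least 50 FPKM. The excess was at least 1 (2-fold) for 6 of 10 genes, *Pfkm*, *Aldoa*, *Gapdh*, *Pkm*, *Ldha* and *Ldhb*, against 3.64% of all tested IDs and 12.9% of those of at least 50 FPKM. It was 3.65 for *Gapdh*, 1.67 for *Ldhb* and 1.61 for *Aldoa*. Of 1050 IDs averaging 50 FPKM or more, 2 exceeded *Gapdh*, 13 *Ldhb* and 17 *Aldoa* in this measure. *Gapdh* itself averaged 49.6 FPKM, just under this level. *Hk1* had the smallest excess, 0.30, against a median of 0.03 and an upper quartile of 0.33 over all tested IDs.

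Position within a library, which no scaling of the library alters, showed the same library apart. *Gapdh* was the ID of rank 423 in WT replicate 2 and of rank 2417 in WT replicate 1, 4093 in miR-187 replicate 1 and 3073 in miR-187 replicate 2. *Aldoa* had rank 71 in WT replicate 2 and rank 159, 203 and 152 in the others. By rank, 9 of 10 genes stood highest in WT replicate 2. The exception was *Hk1*, with rank 3855 in WT replicate 2 and rank 3694 in WT replicate 1.

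**Figure D2:**
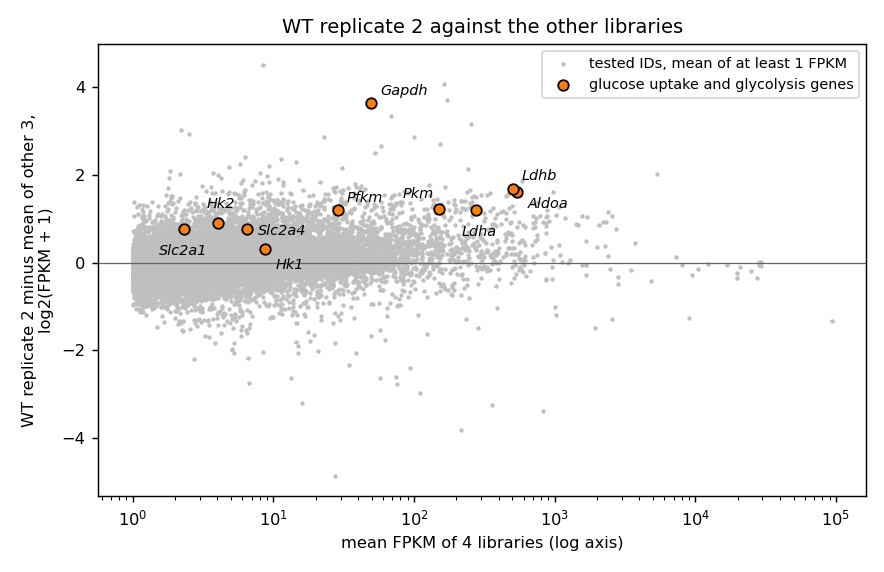
Difference between WT replicate 2 and the mean of the other 3 libraries on the log2(FPKM + 1) scale (vertical axis) by mean FPKM (log axis). Grey points are the 14325 tested IDs and orange points the 10 genes, which all lie above 0, from 0.30 for *Hk1* to 3.65 for *Gapdh*.

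The miR-187 libraries were closer to each other. Their FPKM differed by less than 1.3-fold for 5 of 10 genes, *Hk1*, *Hk2*, *Pfkm*, *Pkm* and *Ldha*, and by at most 1.56-fold (*Aldoa*). The WT libraries were more than 2-fold apart for 6 of 10 genes. The shares of all tested IDs at these fold cutoffs were not computed. The median gap between replicates on the log2(FPKM + 1) scale was 1.20 in WT and 0.23 in miR-187 over the 10 genes, and 0.36 and 0.37 over all tested IDs.

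Each gene had a lower mean FPKM in the miR-187 hearts, but no gene passed the test. The decrease in the mean ran from 21.1% for *Hk1* to 88.0% for *Gapdh*. On the log2(FPKM + 1) scale the difference was below 0 for 10 of 10 genes, against 55.7% of tested IDs, and its median was -0.63 over the 10 genes and -0.04 over all tested IDs. By limma with Benjamini-Hochberg adjustment over 14325 IDs, 0 of 10 genes were higher and 0 of 10 lower at an adjusted p under 0.05, against 0% and 0.00698% of tested IDs, and each adjusted p was 1.00. At an unadjusted limma p under 0.05, 2 of 10 genes were lower, *Gapdh* and *Ldhb*, against 1.8% of tested IDs, and 0 were higher, against 1.32%. This count depended on the processing, and each count below is followed by the share of tested IDs lower at the same threshold in the same fit. It was 1 of 10, *Gapdh* alone, with median centring (1.34%), a common sum (1.92%), TMM factors (trimmed mean of M-values; 1.42%) or quantile normalization (1.65%). It was 1 of the 8 genes tested with a minimum mean of 5 FPKM (1.45%) and 0 of 10 without a filter on low values (1.46%). It was 3 of 10 with the replicate number as a block (2.09%) and 3 of 10 with centring on IDs of at least 50 FPKM (1.25%). Leaving out a library gave 7 without WT replicate 1 (4.64%), 0 without WT replicate 2 (1.94%), 1 without miR-187 replicate 1 (3.9%) and 3 without miR-187 replicate 2 (1.88%). In bulk tissue, fewer cells of a type and less RNA per cell cannot be told apart.

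*Gapdh* had the widest group difference, with means of 88.6 ± 103 FPKM (WT) and 10.7 ± 2.21 FPKM (miR-187; SD, n = 2 per group), or -2.16 on the log2 scale with a limma standard error of 0.63. Without WT replicate 2 the *Gapdh* difference was -0.51 (limma 95% interval -1.46 to 0.43). Its limma adjusted p was 1.00 with all libraries. The difference was -3.82 without WT replicate 1 and -2.36 without miR-187 replicate 2. In the former fit the WT group is WT replicate 2 alone, and in the latter the miR-187 group is miR-187 replicate 1 alone. The spread then comes from the remaining pair and from a variance pooled over IDs. With all 4 libraries the limma adjusted p was 0.00276 when the replicate number was added as a block (51 IDs called). It was 0.000363 with a minimum mean of 0.1 FPKM (46 of 49380 IDs called). Without a filter on low values, the same difference of -2.16 had a limma 95% interval of -5.09 to 0.76, which included 0. *Ldhb* averaged 700.5 ± 467 FPKM (WT) and 306 ± 74.8 FPKM (miR-187; SD, n = 2 per group), with a log2 difference of -1.03 (limma 95% interval -2.05 to -0.02), and of -0.30 without WT replicate 2. In fits with all 4 libraries, the *Ldhb* interval included 0 with a minimum mean of 5 FPKM and without a filter on low values. It also included 0 under median centring, a common sum, TMM factors and quantile normalization (-2.26 to 0.28 with TMM factors). *Aldoa* averaged 719.7 ± 498 FPKM (WT) and 351 ± 108 FPKM (miR-187; SD, n = 2 per group), a log2 difference of -0.87 (-1.91 to 0.16) that became -0.10 without WT replicate 2. With the replicate block the *Aldoa* interval was -1.74 to -0.0099, and its adjusted p stayed above 0.05.

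For the remaining genes the log2 difference lay between -0.68 (*Hk2*) and -0.30 (*Hk1*), and each limma 95% interval included 0. For *Hk2* the interval ran from -1.42 to 0.07, for *Slc2a4* from -1.37 to 0.16 and for *Slc2a1* from -1.17 to 0.33. Differences of 2-fold or more in the lower direction were thus inside the intervals of these genes. The gap between the WT libraries exceeded the group difference for 8 of 10 genes, all but *Slc2a4* and *Hk1*, against 67.5% of tested IDs.

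Groups did not overlap for 6 of 10 genes, each lower in miR-187, against 13.2% of tested IDs that were lower without overlap; 0 of 10 were higher without overlap, against 12.3%. These genes were *Slc2a4*, *Hk1*, *Hk2*, *Pfkm*, *Gapdh* and *Ldhb*. Since WT replicate 2 was the highest library throughout, this count rests on WT replicate 1, and both miR-187 libraries lay below WT replicate 1 alone for 31.3% of tested IDs.

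Without WT replicate 2, the miR-187 libraries were compared with WT replicate 1, which is then assumed to vary like the other group. The difference stayed below 0 for 8 of 10 genes and turned above 0 for *Pkm* (0.12) and *Ldha* (0.08). Its median over the 10 genes was -0.17 on the log2 scale, against -0.02 for all tested IDs, and the limma interval included 0 for 10 of 10 genes. Next to *Gapdh*, the differences farthest from 0 were those of *Slc2a4* (-0.34), *Hk2* (-0.33) and *Ldhb* (-0.30). Those of *Hk1* (-0.23), *Aldoa* (-0.10), *Pfkm* (-0.08) and *Slc2a1* (-0.06) were nearer to 0.

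**Figure D3:**
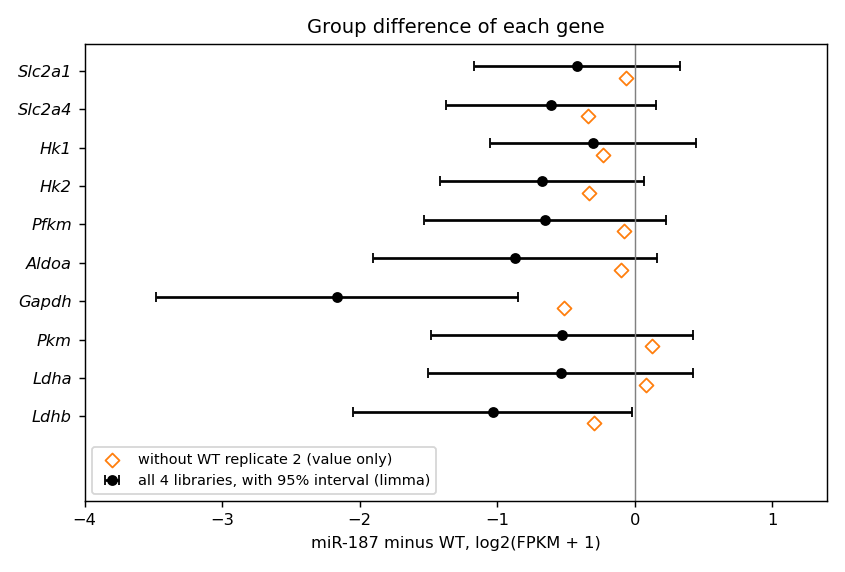
Difference between miR-187 and WT for each gene on the log2(FPKM + 1) scale. Black circles with bars are values from all 4 libraries with limma 95% intervals and open diamonds values without WT replicate 2; 8 of 10 intervals include 0, and the diamonds lie nearer to 0, between -0.51 and 0.12.

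Ratios between paired forms were then computed within each library, where scaling of the library cancels. With 2 libraries against 2, the smallest two-sided p of an exact permutation test is 0.333, so no ratio could pass 0.05, and 3 ratios were examined.

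The ratio of *Slc2a1* to *Slc2a4* was 0.297 and 0.388 in WT and 0.541 and 0.250 in miR-187. The highest and the lowest value both belonged to the miR-187 group, so the groups overlapped. The mean log2 ratio was -1.56 ± 0.27 in WT and -1.44 ± 0.79 in miR-187 (SD, n = 2 each), a difference of 0.11 with an exact permutation p of 1.00. The sign of this difference turned without WT replicate 1 (-0.08) and without miR-187 replicate 1 (-0.44), and the difference was 0.31 without WT replicate 2.

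The ratio of *Hk1* to *Hk2* was 2.43 and 1.54 in WT and 2.88 and 2.63 in miR-187. It was higher in both miR-187 libraries, and the lowest value was that of WT replicate 2. The mean log2 ratio was 0.95 ± 0.47 in WT and 1.46 ± 0.09 in miR-187 (SD, n = 2 each), a difference of 0.51 with an exact permutation p of 0.333, the smallest possible. The difference was 0.18 without WT replicate 2, and 0.84 without WT replicate 1.

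The ratio of *Ldha* to *Ldhb* was 0.537 and 0.460 in WT and 0.872 and 0.563 in miR-187. *Ldha* thus made up 35.0% and 31.5% of the summed FPKM of both genes in WT and 46.6% and 36.0% in miR-187. The groups did not overlap, but miR-187 replicate 2 was closer to WT replicate 1 than to miR-187 replicate 1. The mean log2 ratio was -1.01 ± 0.16 in WT and -0.51 ± 0.45 in miR-187 (SD, n = 2 each), a difference of 0.49 with an exact permutation p of 0.333, the smallest possible. It was 0.38 without WT replicate 2, 0.18 without miR-187 replicate 1 and 0.81 without miR-187 replicate 2.

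**Figure D4:**
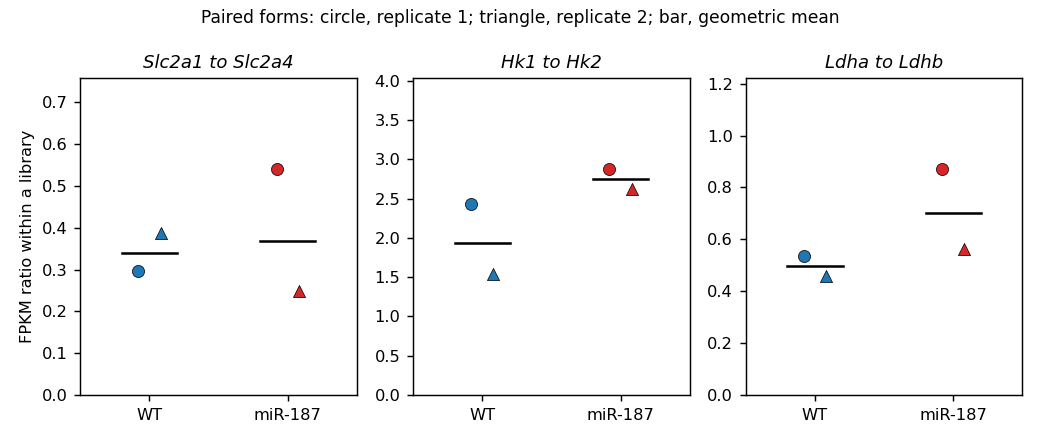
FPKM ratios of *Slc2a1* to *Slc2a4*, *Hk1* to *Hk2* and *Ldha* to *Ldhb* in each library (vertical axes start at 0), with circles for replicate 1, triangles for replicate 2 and bars for geometric means. The groups overlap in the left panel, and in the other panels both miR-187 points lie above both WT points.

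The ratios of some gene pairs varied little across the libraries. Of 45 possible pairs, *Pfkm* and *Ldha* varied least, with a ratio of 0.111 and 0.107 in WT and 0.0972 and 0.101 in miR-187, or 1.15-fold from lowest to highest. *Aldoa* to *Ldhb* ranged over 1.20-fold, with a ratio between 0.992 and 1.19, and *Pkm* to *Ldha* over 1.20-fold, between 0.499 and 0.600. Of 36 pairs without *Gapdh*, 28 ranged over less than 2-fold, with a median range of 1.71-fold. The widest of these was *Hk1* to *Ldhb*, at 3.08-fold. Each of the 9 pairs with *Gapdh* ranged over at least 4.61-fold. These are descriptions over 4 libraries and carry no test. Pairs of other IDs were not computed, so whether such ranges are usual is not known.

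Together the 10 genes took 0.136% and 0.411% of all FPKM in the WT libraries and 0.115% and 0.146% in those of miR-187. The share was 0.274 ± 0.194% in WT and 0.131 ± 0.0219% in miR-187 (SD, n = 2 each), with overlapping groups and an exact permutation p of 0.667. Between 92.1% and 95.6% of the members' summed FPKM came from *Aldoa*, *Ldha*, *Ldhb* and *Pkm*. Without WT replicate 2, the share in miR-187 differed from that in WT replicate 1 by -0.00555 percentage points. The share depends on the few most abundant IDs, whose part of the sum differed between libraries. When the 10 IDs of highest mean were left out of the sum, the share was 0.247% and 0.606% in WT and 0.218% and 0.241% in miR-187, so that the groups did not overlap, with an exact permutation p of 0.333, the smallest possible. The difference without WT replicate 2 was then -0.0179 percentage points.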

How the data were processed

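RNA-seq libraries from P0 hearts (2 WT, 2 miR-187) were analysed. The authors deposited FPKM values for 55487 IDs. The submitters' processing notes name HISAT2, StringTie, DESeq2 and mm10; versions, annotation and strand setting are not given in the sources used here. Depth is unknown, so precision rests on the replicates.

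Values were transformed as log2(FPKM + 1), which understates changes of low genes. The 14325 IDs averaging 1 FPKM or more were fitted with limma 3.58.1 in R 4.3.3 (mean-variance trend, no replicate block, two-sided, Benjamini-Hochberg). The procedure was also run on simulated data in which each ID had the same noise level in every library. That simulation held no library set apart like WT replicate 2, and its outcome is not given here. Symbols of the 10 IDs came with the gene list. All 10 genes are named. A fixed list of 68 other pathway symbols and 74 marker symbols in 11 lists was not analysed here: the RefSeq table (49997 rows) held 0 Ensembl IDs. Members and lists were chosen with earlier results of these data known. As alternatives, the pseudocount was lowered to 0.1, the minimum mean set to 0.1 or 5 FPKM or dropped, 4 scalings applied (median centring, a common sum, TMM factors, quantiles), the eBayes trend left out, the replicate number added as a block, and each library omitted in turn. Centring on IDs of at least 50 FPKM was added after seeing the data. Plots were made with Python 3.11.15 (matplotlib 3.10.9).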

Additional observations from a re-analysis of the deposited data

How the results depend on the processing

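Under the alternatives, 141 of 148 gene values kept their direction and their side of the threshold. *Gapdh* passed the adjusted threshold in 5 of 15 alternatives, which gave 1 lower gene in place of 0: limma adjusted p 0.000363 with a minimum mean of 0.1 FPKM and 0.00276 with the replicate block (both -2.16), 6.06e-05 when centred on IDs of at least 50 FPKM (-2.07, chosen after seeing the data), and in 2 fits without a library. Calls over all IDs also rose in these fits, from 0.00698% to 0.0932%, 0.356% and 0.223% in the first 3. Omitting a library leaves a single library in a group. Calls over all IDs rose in each such fit, also in those where *Gapdh* was not called. The cause was not tested. Omitting each library in turn gave -3.82 to -0.51 for *Gapdh*, -1.18 to 0.12 for *Pkm*, -1.16 to 0.084 for *Ldha*, -0.44 to 0.67 for the log2 ratio of *Slc2a1* to *Slc2a4*, and 0 to 1 lower genes; the signs of *Pkm* and *Ldha* turned without WT replicate 2 (0.12 and 0.084), and that of the carrier ratio without WT replicate 1 (-0.08) or miR-187 replicate 1 (-0.44). *Slc2a1* and *Hk2* fall under the minimum mean of 5 FPKM. At the adjusted threshold, the replicate block changed the call of no member other than *Gapdh*. Deviations of same-numbered libraries correlated across tested IDs with r = -0.0675 (-0.175 over IDs averaging 10 FPKM or more and -0.171 over those averaging 50 or more), and the labels tie the numbers to no litter or batch, so the libraries were not taken as paired. The most abundant ID took 18.5% (WT) and 21.0% (miR-187) of FPKM in replicate 1 libraries and 4.45% and 3.03% in replicate 2 libraries. Whether same-numbered libraries share a factor was not tested. The FPKM hold no counts, so limits set by depth cannot be given.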
